A study of Citrus maxima and Citrus sinensis with 12 samples.

Results

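Root-tip microRNAs (miRNAs) were compared between 2 citrus species under toxic boron, with 3 libraries of C. grandis (pummelo, recorded as Citrus maxima) set against 3 libraries of C. sinensis (sweet orange), all from seedlings irrigated with 400 µM H3BO3. They are 6 of the 12 libraries of the series, chosen by species and boron level. The others are 3 libraries of each species at 10 µM H3BO3, the control level, and are used to ask whether a difference was also present without boron excess, and entered the fit, where they help to set the spread between libraries behind the tests at 400 µM. In each group the seedlings were 11 weeks old when sand culture in a greenhouse began, received nutrient solution with boric acid for 15 weeks, and gave root-tip total RNA, which for each library was mixed from 5 replicates. The labels name no cultivar and no genetic modification.

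The entries of the count table held 126 distinct mature sequences of 19 to 25 nt, all of which were included and each counted once here. Of these, 27 sequences stood at several entries, 73 entries in all. The labels do not say whether libraries of a group came from separate plants, so p-values measure the spread between these libraries, which may be technical. Most entries were placed on 1 set of scaffolds. Of those kept here, ccl-miR168 and ccl-miR171 have no listed position, and ccl-miR167a and ccl-miR396 have a position without a scaffold name. The same entries were counted in both species. The sources used here do not name the build. A lower level and a change of the sequence in 1 species therefore cannot be told apart. The tissue was not checked by markers, because the table holds no messenger RNA.

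A plant miRNA is cut from a hairpin precursor, loaded into an ARGONAUTE protein and guides it to messenger RNAs with near-complete complementarity. Many families are shared across land plants and act on transcription factors of growth, while others are known from few lineages and differ between related species. Boron is a micronutrient of the cell wall, and its excess injures root growth. C. sinensis is known as the more boron-tolerant of the pair. Names below are those of the deposited tables, in which a prefix such as ath or ptc stands for the species of the known miRNA that the sequence was matched to.

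The sequences that differed most between the species are shown because most of them fall into near-identical pairs or have no family name. They are written 5′ to 3′ as deposited, with the seed (bases 2 to 8) in capitals. The first pair shares the seed UUCUCUU at an edit distance of 2, and the second pair shares the seed UACUGUA with the substitutions U11C and U24C from ci-miRN17 to ptc-miR473a-5p, positions counted from the 5′ end.
miR3951: uUUCUCUUaucguuaucugug
bra-miR9563a-3p: uUUCUCUUaucuuuuaucugug
ci-miRN17: gUACUGUAgcugugagggggacgu
ptc-miR473a-5p: gUACUGUAgccgugagggggacgc
mir7496: uUAGUGAAuucugucgauuuggac
scaffold_8_42593: cUGAUAGUuuucugaucuuuc
scaffold_3_10325: aACGUGUGuuucugauuuuguuaa
scaffold_7_35524: aAUGAGUUuuaaacuguagacugu

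Of 124 sequences abundant enough to be tested, 28 (22.6%) differed between the species at 400 µM (edgeR quasi-likelihood test, Benjamini-Hochberg adjusted p under 0.05). C. grandis was higher for 15 of them (12.1%) and lower for 13 (10.5%). With only the 6 libraries at 400 µM in the fit, 20 sequences passed. In 26 of the 28, no C. grandis library overlapped a C. sinensis library, as was the case for 47 of all 124 sequences (37.9%). The exceptions were ath-miR171b-3p and miR-RN02. Of the 124 sequences, 95 lay within a log2 difference of 1, 63 of them within 0.5, and 6 lay beyond 5. The median of the signed differences was 0.08, in which higher and lower values cancel. When the difference was tested against a log2 size of 1, 11 sequences passed, 5 higher and 6 lower. Of the 28 calls 14 held in each of 10 alternative fits to the same hypothesis and with each of the 6 libraries left out, and the others were lost in at least 1 of these and are given with their highest adjusted p. The balance of directions depended on the scaling, with 8 higher and 13 lower under median-of-ratios scaling and 22 higher and 10 lower when only total counts were used.

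**Figure D1:**
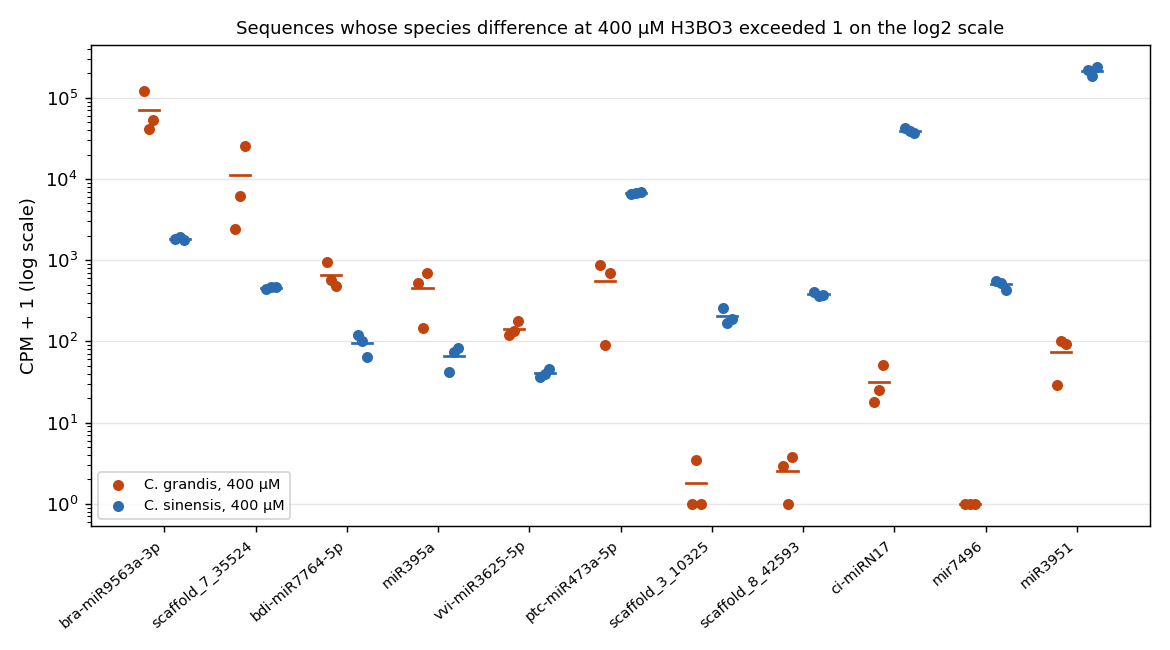
Scaled counts plus 1 (CPM + 1, log scale) in each library at 400 µM for the 11 sequences whose species difference passed a test against a log2 size of 1, with C. grandis in red at the left and C. sinensis in blue at the right of each pair. Points are the 3 libraries and lines their means. In all 11 the groups lay apart, with 5 sequences higher and 6 lower in C. grandis.

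C. grandis had almost no reads of 3 sequences that every C. sinensis library held. The 24-nt mir7496 had 0, 0 and 0 counts in C. grandis, against 186, 255 and 214 counts in C. sinensis. With the C. grandis group set to a limit of 3 counts over its libraries, the level was at least 215-fold lower (edgeR adjusted p = 6.87e-08). The 21-nt scaffold_8_42593, which has no family name, had 1, 0 and 1 counts in C. grandis, against 138, 174 and 183 counts in C. sinensis. The C. sinensis level was 244 times that of C. grandis (95% exact counting interval 67.1 to 2018, edgeR adjusted p = 6.87e-08). The 24-nt scaffold_3_10325 had 0, 1 and 0 counts in C. grandis, against 86, 82 and 93 counts in C. sinensis. Its ratio was 257 (95% exact counting interval 45.7 to 10190, edgeR adjusted p = 3.58e-06). These intervals cover counting error only. All 3 were also near 0 in C. grandis at 10 µM, with 5, 1 and 0 counts summed over its libraries, against sums of 692, 402 and 177 counts in C. sinensis. No C. grandis library reached the count minimum of 10 for any of them, so all 3 entered the test only through C. sinensis. Their adjusted p-values are therefore no separate support for the low level in C. grandis.

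miR3951, a family described in citrus, was the sequence with the largest fitted difference. In CPM, which are counts scaled to the library size, it stood at 28.4, 101 and 91.4 CPM in C. grandis, against 221435, 184494 and 242814 CPM in C. sinensis. It was thus the most abundant sequence of C. sinensis and ranked 109th of all sequences in C. grandis. The log2 difference was −11.54 (SE 0.97, edgeR adjusted p = 1.22e-06). The deposited target table predicts 1 target for it, a gene annotated with leucine-rich repeats.

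The 22-nt bra-miR9563a-3p, which shares the seed of miR3951, went the other way. It stood at 119783, 41484 and 52711 CPM in C. grandis, against 1822, 1912 and 1796 CPM in C. sinensis. It was the fifth most abundant sequence of C. grandis and ranked 38th in C. sinensis. The log2 difference was 5.27 (SE 0.44, edgeR adjusted p = 1.22e-06), a fold of 38.7. Without C. grandis replicate 1, the highest, it was 4.67. Both sequences were assigned to the plus strand of scaffold 1, miR3951 to the hairpin window from 20960909 to 20961158 and bra-miR9563a-3p to the window from 20985765 to 20986014, so that the window starts lay 24.9 kb apart. miR3951 made up 0.146% ± 0.112 of the summed CPM of both in C. grandis and 99.1% ± 0.150 in C. sinensis (SD, n = 3 each). The sum itself was 71400 ± 42299 CPM in C. grandis and 218091 ± 29443 CPM in C. sinensis, with no overlap of the libraries (two-sided exact permutation p = 0.1, the smallest that 3 against 3 libraries allow).

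The second near-identical pair was low in C. grandis in both members. The 24-nt ci-miRN17 stood at 17.04, 24.5 and 49.8 CPM in C. grandis, against 42867, 38609 and 36738 CPM in C. sinensis, where it was the sixth most abundant sequence. The log2 difference was −10.37 (SE 0.68, edgeR adjusted p = 1.17e-07). Its partner ptc-miR473a-5p stood at 869, 88.3 and 687 CPM in C. grandis, against 6618, 6653 and 6895 CPM in C. sinensis. That was a log2 difference of −3.61 (SE 0.59, edgeR adjusted p = 0.000718), smaller than that of ci-miRN17, and C. grandis replicate 2 was far below the other C. grandis libraries. The hairpin windows lay on opposite strands of scaffold 3 and shared 106 nt, with ci-miRN17 on the minus strand from 50071563 to 50071812 and ptc-miR473a-5p on the plus strand from 50071419 to 50071668.

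Over all tested sequences, 30 pairs lay within an edit distance of 2, and in 10 of them the members' log2 differences had opposite signs. In 3 of these 10 at least 1 member passed the test, and in 1, the pair of miR3951 and bra-miR9563a-3p, both did. The sources used here do not give the authors' rule for reads with mismatches, and the sharing of reads within such pairs was not tested.

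**Figure D2:**
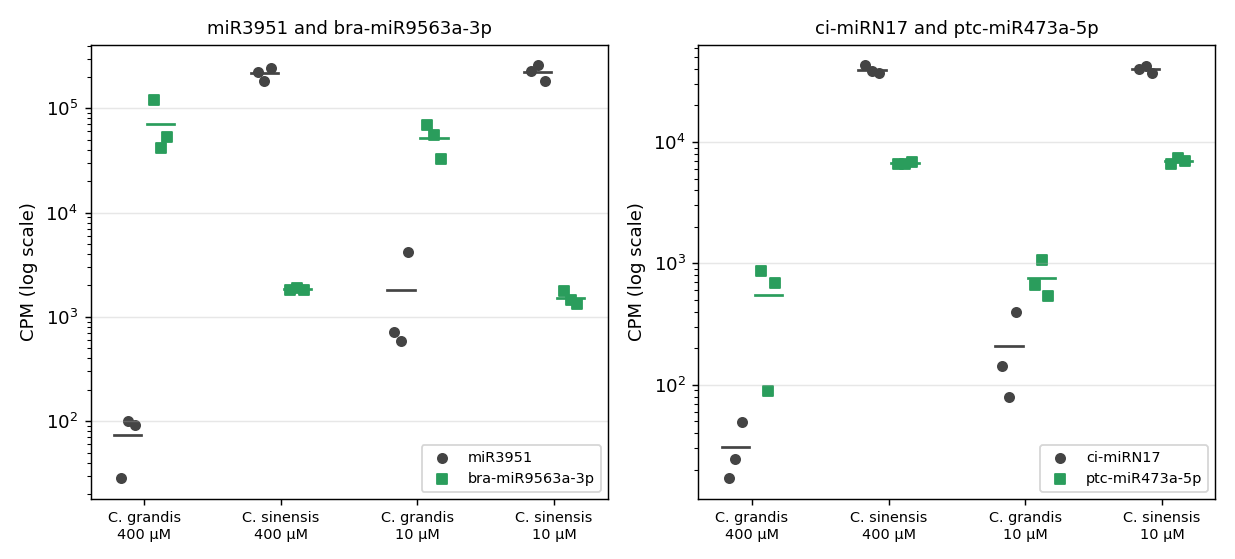
CPM (log scale) of the members of both near-identical pairs in all 12 libraries, as points with the mean of each group as a line, C. grandis left of C. sinensis at each boron level. At 400 µM miR3951 averaged 73.4 CPM in C. grandis and 216248 CPM in C. sinensis, and bra-miR9563a-3p lay on the opposite side, while ci-miRN17 and ptc-miR473a-5p were both lower in C. grandis.

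Among the other sequences higher in C. grandis, the 24-nt scaffold_7_35524, which has no family name, stood at 2432, 6165 and 25475 CPM in C. grandis, against 442, 468 and 463 CPM in C. sinensis. The log2 difference was 4.63 (SE 0.78, edgeR adjusted p = 0.000795). The C. grandis libraries differed widely among themselves, and without replicate 3 the log2 difference was 3.23 (edgeR adjusted p = 0.0007). The 24-nt bdi-miR7764-5p stood at 950.2, 562 and 479 CPM in C. grandis, against 118, 101 and 62.9 CPM in C. sinensis (log2 difference 2.83, SE 0.39, edgeR adjusted p = 0.000159). The 24-nt mtr-miR5224b had a smaller difference with little spread, at 912, 1020.5 and 903 CPM in C. grandis, against 436, 391 and 347 CPM in C. sinensis (log2 difference 1.27, SE 0.17, edgeR adjusted p = 0.00013). In each of these the groups did not overlap. Plant small RNAs of 24 nt are mostly short interfering RNAs of repeats rather than miRNAs, and 49 of the 124 sequences tested had this length.

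By length, 13 of the 49 tested 24-nt sequences passed the test, 5 higher and 8 lower in C. grandis, with a median log2 difference of −0.18. Of the 40 tested 21-nt sequences 9 passed, 5 higher and 4 lower, with a median of 0.30. Of the 19 tested 22-nt sequences 4 passed, all higher in C. grandis, with a median of 0.25. The share called was thus 26.5%, 22.5% and 21.1%, against 22.6% over all lengths.

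Sequences were also grouped into 15 lists by the family number in the deposited name, each family in 1 list. Whether each sequence belongs to the family of its name was not tested. The developmental timing list holds miR156 and miR157, which repress SPL transcription factors, and miR172, which acts on AP2-like factors. Of its 4 tested sequences 2 were higher in C. grandis and 0 were lower, against 12.1% higher and 10.5% lower over all sequences tested. The 4 lay at log2 differences of 0.46 to 1.54, with a median of 0.92, against 0.08 over all. miR157 stood at 6356, 3483 and 4552 CPM in C. grandis, against 1730.4, 2128 and 2541 CPM in C. sinensis (log2 difference 1.17, SE 0.32, edgeR adjusted p = 0.0223). miR172a-5p, the arm of the miR172 hairpin opposite to the AP2-targeting one, stood at 420.2, 194 and 368 CPM in C. grandis, against 59.0, 119.5 and 156.3 CPM in C. sinensis (log2 difference 1.54, SE 0.49, edgeR adjusted p = 0.0453). The groups did not overlap for either. The miR157 call was lost without C. grandis replicate 1 or C. sinensis replicate 1 or 2 (adjusted p up to 0.0886), and that of miR172a-5p in 5 of 10 alternative fits and without 5 of 6 libraries (adjusted p up to 0.129). miR156 was at a log2 difference of 0.67 (SE 0.30, edgeR adjusted p = 0.125) with overlapping groups, or 0.44 without C. sinensis replicate 1, and the deposited target table gives SBP-domain genes, the SPL family, among its predicted targets.

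The auxin list holds miR160 and miR167, which repress auxin response factors, and miR390, which starts the production of trans-acting short interfering RNAs against other auxin response factors. Of its 7 tested sequences 2 were higher and 1 was lower in C. grandis, against 22.6% called in either direction over all sequences. ath-miR390a-5p was the lower one, at 310.4, 314 and 368 CPM in C. grandis, against 881, 707 and 676 CPM in C. sinensis (log2 difference −1.19, SE 0.25, edgeR adjusted p = 0.00467). The 3 miR167 forms shared the seed GAAGCUG and are shown because they differ only at their 3′ ends.
miR167b-3p: uGAAGCUGccagcaugaucuau
miR167h: uGAAGCUGccagcaugaucuua
ccl-miR167a: uGAAGCUGccagcaugaucuga
The forms miR167b-3p and miR167h were higher in C. grandis, at log2 differences of 0.69 (SE 0.20, edgeR adjusted p = 0.0307) and 0.58 (SE 0.19, edgeR adjusted p = 0.0466). The most abundant form, ccl-miR167a, stood at 47386, 33845 and 32514 CPM in C. grandis, against 22268, 27256 and 25709 CPM in C. sinensis, and its log2 difference of 0.60 (SE 0.21) missed the threshold (edgeR adjusted p = 0.0637). Both miR167 calls were lost in most alternative fits and without at least 5 of the 6 libraries, with adjusted p up to 0.135 for miR167b-3p and 0.187 for miR167h. Despite its name, miR167b-3p has the sequence of a 5p form, and the deposited table matches it to ath-miR167a-5p. The 3 miR160 forms did not pass, at 0.30 to 0.36.

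The MYB and TCP list holds miR159, which represses MYB factors, and miR319, which represses TCP growth regulators. Of its 9 tested sequences 1 was higher and 2 were lower in C. grandis, against 22.6% called over all sequences. The miR319 forms are shown because they differ at their ends.
ath-miR319a (scaffold_3_9221): uUGGACUGaagggagcuccc
ath-miR319a (scaffold_5_23391): uUGGACUGaagggagcuccu
gma-miR319g: uGGACUGAagggagcuccuuc
miR319: aUUGGACUgaagggagcucc
ppt-miR319a: uUUGGACUgaagggagcucc
The form at scaffold_3_9221 stood at 2646, 2495 and 2453 CPM in C. grandis, against 4955, 4966 and 5334 CPM in C. sinensis (log2 difference −1.01, SE 0.31, edgeR adjusted p = 0.0434). gma-miR319g stood at 10308, 10075 and 8169 CPM in C. grandis, against 16322, 14221 and 15142 CPM in C. sinensis (log2 difference −0.68, SE 0.22, edgeR adjusted p = 0.0472). The groups lay apart in both, with little spread within either species. The calls of both were lost without 5 of 6 libraries (adjusted p up to 0.113 at scaffold_3_9221 and 0.153 for gma-miR319g). With a replicate block both were also lost (adjusted p up to 0.0643 at scaffold_3_9221), and gma-miR319g was lost in 4 of 10 alternative fits in all (adjusted p up to 0.11). The form at scaffold_5_23391 was at −0.63 (SE 0.27, edgeR adjusted p = 0.106), again with no overlap. The forms that start 1 base earlier than ath-miR319a overlapped between the species, with miR319 at 0.37 (SE 0.31, edgeR adjusted p = 0.403) and ppt-miR319a at 0.02 (SE 0.23, edgeR adjusted p = 0.94). miR319-5p, the opposite arm, was at 0.96 (SE 0.63, edgeR adjusted p = 0.272), and at 0.59 to 1.45 with 1 library left out. Whether the 5′ forms differ from each other in the species difference was not tested.

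The abundant 21-nt ath-miR159a (scaffold_3_17340) stood at 169514, 169738 and 159563 CPM in C. grandis, against 143065, 130319 and 117142 CPM in C. sinensis. The groups did not overlap, but the log2 difference of 0.35 (SE 0.21) did not pass the test (edgeR adjusted p = 0.219), and it was 0.16 without C. sinensis replicate 3. A 20-nt form with the same seed, ath-miR159a (scaffold_3_17782), was higher in C. grandis, with 4409.5 ± 626 CPM in C. grandis and 2757 ± 143 CPM in C. sinensis (SD, n = 3 each) and a log2 difference of 0.68 (SE 0.22, edgeR adjusted p = 0.0453). That call was lost in 5 of 10 alternative fits and without any 1 of the 6 libraries (adjusted p up to 0.172).

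miR171 represses GRAS transcription factors of root and shoot meristems. ath-miR171b-3p stood at 214, 105 and 246 CPM in C. grandis, against 79.6, 72.1 and 108 CPM in C. sinensis, so that the lowest C. grandis library lay just below the highest of C. sinensis. Its log2 difference was 1.12 (SE 0.35, edgeR adjusted p = 0.0434), a call lost in 6 of 10 alternative fits and without 5 of 6 libraries (adjusted p up to 0.167). miR171b.1 stood at 51.1, 54.0 and 158 CPM in C. grandis, against 26.5, 32.97 and 42.6 CPM in C. sinensis, with no overlap (log2 difference 1.32, SE 0.51, edgeR adjusted p = 0.0785). Without C. grandis replicate 3, the highest, it was 0.61. ccl-miR171 was too rare to be tested, with 1, 2 and 3 counts in C. grandis, against 3, 2 and 5 counts in C. sinensis. The entry named miR9563 carries the same seed as ath-miR171b-3p, UGAGCCG, and was at −1.16 (SE 0.63, edgeR adjusted p = 0.184); it is mentioned for its sequence, after its values were seen.
ath-miR171b-3p: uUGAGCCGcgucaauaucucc
miR9563: uUGAGCCGcgccaauaucacu

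The nutrient list holds sequences named miR395, miR827, miR2111 and miR169, placed there by name only. Its 5 tested sequences lay at log2 differences of −0.61 to 2.80, with 4 above 0. In the test 1 of the 5 was higher and 0 were lower in C. grandis, a share near the 22.6% called over all sequences. It was miR395a, which acts on sulfate assimilation and transport, at 526, 147 and 703 CPM in C. grandis, against 41.3, 72.1 and 81.2 CPM in C. sinensis (log2 difference 2.80, SE 0.56, edgeR adjusted p = 0.00293). In the list of citrus and woody-plant families, besides miR3951, vvi-miR3625-5p differed, at 117, 132 and 177 CPM in C. grandis, against 35.4, 39.1 and 44.7 CPM in C. sinensis (log2 difference 1.82, SE 0.33, edgeR adjusted p = 0.00156). The 4 tested sequences of this list lay at −11.54 to 1.82, with 2 above 0. The list of triggers of phased short interfering RNAs includes the miR472 and miR482 families, which target resistance genes of the NBS-LRR type. Its 5 tested sequences lay at −0.44 to 1.12, with 3 above 0. In the test 1 of the 5 passed, again near the 22.6% over all sequences. It was the 24-nt ata-miR9863a-3p, at 2033, 3106 and 3109.6 CPM in C. grandis, against 1199.7, 1362 and 1240.2 CPM in C. sinensis (log2 difference 1.12, SE 0.26, edgeR adjusted p = 0.00732). As stated above, plant small RNAs of this length are mostly short interfering RNAs of repeats. This sequence was listed by its name, and whether it triggers phased short interfering RNAs was not tested. Without C. sinensis replicate 3 it missed the threshold (adjusted p = 0.0565). For miR395a, vvi-miR3625-5p and ata-miR9863a-3p the C. grandis libraries lay above those of C. sinensis.

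In 6 lists 0 sequences passed the edgeR test. They were the class III HD-ZIP regulators (miR165 and miR166, root patterning), with 4 tested sequences at log2 differences of −0.55 to 0.20, and the GRF and F-box regulators (miR396 and miR394), with 6 at −0.26 to 0.96. The NAC list (miR164) had 2, ath-miR164a at 0.39 and miR164b-3p at 1.55, which was 0.35 without C. grandis replicate 2, and the miR477 and miR530 list 3, at −0.39 to 0.26. The copper list had miR398, which acts on copper/zinc superoxide dismutase, at −1.10 (SE 0.66, edgeR adjusted p = 0.219; −0.64 without C. sinensis replicate 3) and miR397-3p, the opposite arm of a laccase regulator, at −0.01 (SE 0.70, edgeR adjusted p = 0.991). The list of the small RNA machinery itself (miR162 against DCL1, miR168 against AGO1, miR403 against AGO2) had 6 sequences by name. All lay above 0, at 0.22 to 0.63 with a median of 0.39. Of these, ath-miR168b-3p and ath-miR403-3p (scaffold_5_25549) are 24 nt. ath-miR168b-3p lies at an edit distance of 1 from atr-miR8553b (scaffold_3_9559), which was at −0.40. The 24-nt ath-miR403-3p does not share the seed of the 21-nt forms of that name. Whether either acts on the named genes was not tested. At an unadjusted p under 0.05, 4 of the 23 sequences in these lists passed, against 45 of all 124, and they were ath-miR394a, bdi-miR166f, ath-miR403-3p (scaffold_3_17634) and ath-miR162a-3p.

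The remaining calls had family names of less known function or none. Of 39 tested sequences of other named families 3 were higher and 6 were lower in C. grandis, and of 26 without a family name 3 were higher and 3 were lower, shares near the 22.6% called over all sequences. osa-miR5077 stood at 3089, 2330.4 and 2583 CPM in C. grandis, against 5250.0, 4494 and 4899.8 CPM in C. sinensis (log2 difference −0.87, SE 0.19, edgeR adjusted p = 0.0048). gra-miR8713, ath-miR841b-3p and ptc-miR478a were lower in C. grandis at −1.42 (SE 0.37), −1.19 (SE 0.35) and −0.51 (SE 0.17), with edgeR adjusted p = 0.0183, 0.0328 and 0.0466. miR-RN04 was higher at 2.14 (SE 0.67) and miR-RN02 at 1.25 (SE 0.42), with edgeR adjusted p = 0.0434 and 0.0479. The C. grandis libraries lay above those of C. sinensis for miR-RN04 and overlapped them for miR-RN02, whose log2 difference was 0.48 without C. grandis replicate 3. These 5 calls, unlike that of osa-miR5077, were each lost without at least 3 of 6 libraries and in at least 1 alternative fit, with adjusted p over both up to 0.0733 for gra-miR8713, 0.113 for ath-miR841b-3p, 0.162 for ptc-miR478a, 0.172 for miR-RN04 and 0.266 for miR-RN02.

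**Figure D3:**
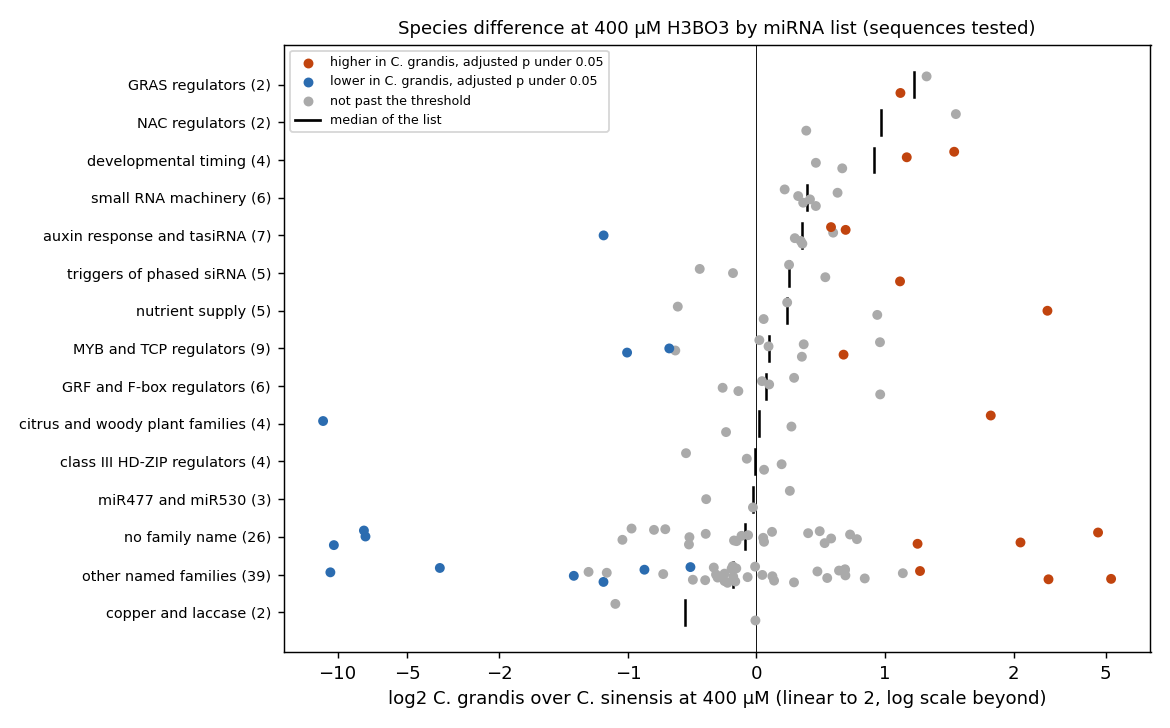
Log2 difference of C. grandis over C. sinensis at 400 µM for each of the 124 tested sequences (x axis, linear to 2 and on a log scale beyond), by list (y axis, sequences tested in brackets), with the list median as a black line. Red points were higher and blue points lower in C. grandis at an adjusted p under 0.05, 15 and 13 in all, and grey points did not pass; values of the 3 sequences near 0 counts in C. grandis depend on the fit.

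The most abundant sequences were shared. The 20-nt scaffold_1_3278, which has no family name, stood at 107696, 207827 and 205825 CPM in C. grandis, against 173551, 154123 and 252662 CPM in C. sinensis (log2 difference −0.15, SE 0.36, edgeR adjusted p = 0.786). ath-miR165a-3p (scaffold_9_46062) has a sequence that is named csi-miR166a at another of its entries. It averaged 129043 ± 25697 CPM in C. grandis and 112683 ± 7093 CPM in C. sinensis (SD, n = 3 each), with overlapping libraries. Together with ath-miR159a and a second form named miR165a-3p, scaffold_1_3278 and this sequence were among the 5 most abundant of both species. The fifth place went to bra-miR9563a-3p in C. grandis and to miR3951, in first place, in C. sinensis.

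The 7 library quantities compared were each put to a two-sided exact permutation test, which cannot go below p = 0.1, with p-values adjusted over the 7. The 21-nt sequences held 49.9%, 45.4% and 47.5% of counts in C. grandis, against 57.2%, 58.7% and 55.6% in C. sinensis (exact p = 0.1, adjusted p = 0.233). The 22-nt sequences held 28.2%, 19.5% and 16.8% in C. grandis, against 10.0%, 11.3% and 9.60% in C. sinensis (exact p = 0.1, adjusted p = 0.233). The 5 most abundant sequences of a library held 64.7%, 64.7% and 63.7% in C. grandis, against 66.8%, 66.1% and 70.0% in C. sinensis (exact p = 0.1, adjusted p = 0.233). The groups did not overlap in any of these 3 shares. The last of them differed by −3.26 percentage points, and by 3.27 with miR3951 and scaffold_1_3278 left out. miR3951 is 21 nt, scaffold_1_3278 is 20 nt and bra-miR9563a-3p is 22 nt. With miR3951 and scaffold_1_3278 left out, the difference in the 21-nt share went to −1.61 percentage points, against −9.55 with them. The difference in the 22-nt share was then 9.52 percentage points, against 11.18 with them. bra-miR9563a-3p was not left out, and leaving out an abundant sequence changes every share. The 24-nt share was 8.54% ± 1.95 in C. grandis and 10.9% ± 1.61 in C. sinensis (SD, n = 3 each; exact p = 0.2, adjusted p = 0.35). The total of counts, each sequence counted once, was 542152, 370159 and 367449 in C. grandis, against 365570, 502947 and 577150 in C. sinensis, so that depth did not separate the species (exact p = 0.7, adjusted p = 0.98). The 20-nt share and that of the single most abundant sequence differed by 0.66 and −0.095 percentage points (exact p = 0.9 and 1.0, both adjusted p = 1.0), with overlapping groups.

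C. grandis libraries agreed less well with each other. The spread between libraries that edgeR estimated, as a biological coefficient of variation, came to 37.9% for C. grandis and 21.6% for C. sinensis at 400 µM, and the coefficient of variation of CPM was larger in C. grandis for 87 of 123 sequences, with medians of 26.6% in C. grandis and 16.3% in C. sinensis. Pearson correlations of log2 CPM between replicate libraries were 0.963 to 0.964 in C. grandis and 0.9745 to 0.994 in C. sinensis. The edgeR fit uses 1 spread for all groups, and a fit with group weights called 22 sequences, 10 higher and 12 lower. At 10 µM the biological coefficient of variation was likewise larger in C. grandis, at 36.5% against 19.6% in C. sinensis.

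The libraries at 10 µM showed whether the species differed in the same way without boron excess. There, 35 of the 124 sequences (28.2%) differed, 20 higher (16.1%) and 15 lower (12.1%) in C. grandis. Both levels shared 21 calls, or 75.0% of those at 400 µM and 60.0% of those at 10 µM, all in the same direction. All 28 sequences called at 400 µM had the same sign at 10 µM, as did 101 of all 124 tested sequences. Across the 124 sequences, which are not independent replicates, log2 differences at both levels had a Pearson r of 0.94 and a Spearman rho of 0.83; no library entered both, though each species was grown, and its sequences counted, in the same study. Among the 82 sequences called at neither level, 60 had the same sign and r was 0.67.

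**Figure D4:**
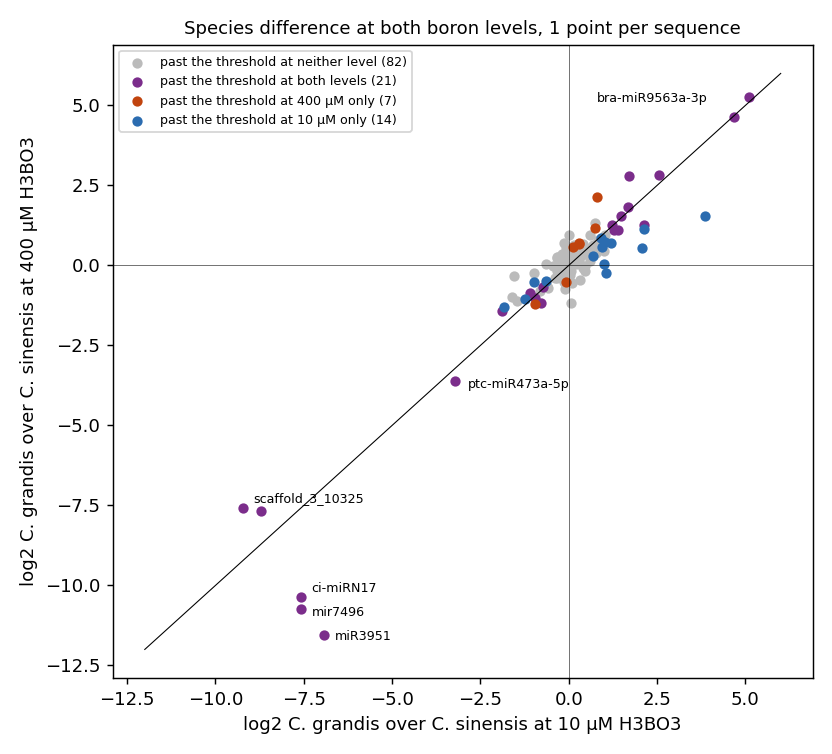
Log2 difference of C. grandis over C. sinensis at 400 µM (y axis) against that at 10 µM (x axis) for the 124 tested sequences, with the line of equal values. The 21 sequences past the threshold at both levels lie on the same side of 0 at each, and miR3951, ci-miRN17 and mir7496 lie below the line; the value of mir7496 depends on the fit, since C. grandis had 0 counts at 400 µM.

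The 7 sequences that passed at 400 µM only were miR157, miR167b-3p, miR167h, the 20-nt ath-miR159a, miR-RN04, ath-miR841b-3p and ptc-miR478a. Their species difference was not shown to depend on boron, since the test of the difference between levels gave edgeR adjusted p-values of 0.96 to 0.984. In that test 1 of 124 sequences (0.806%) passed, which was miR3951, and 6 had an unadjusted p under 0.05. The gap between the species was wider at 400 µM, with a log2 difference of −11.54 at 400 µM and −6.93 at 10 µM, a change of −4.61 (SE 0.95, edgeR adjusted p = 0.0477). At 10 µM miR3951 had 711, 589 and 4175 CPM in C. grandis, against 228470, 258839 and 181769 CPM in C. sinensis, so that all C. grandis libraries were lower at 400 µM than at 10 µM while the C. sinensis libraries of both levels overlapped. Without the C. grandis replicate 3 at 10 µM the change was −3.17 (edgeR adjusted p = 0.00832). The call was lost in a fit with group weights (adjusted p = 0.112), with all entries as deposited (adjusted p = 0.0540), with a replicate block (adjusted p = 0.186), and without any 1 library of C. grandis at 400 µM or of C. sinensis (adjusted p 0.0563 to 0.182). ci-miRN17 came next, with a change of −2.78 (SE 0.71) that did not pass (edgeR adjusted p = 0.119).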

How the data were processed

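Root-tip small RNA was sequenced as single reads on an Illumina HiSeq after TruSeq library preparation, per the labels. The authors deposited counts, whole numbers per miRNA entry without normalisation. How reads became counts (aligner, mismatch rule, genome build) is not given in the sources used here. The submitters' processing notes name DESeq, with no version. The authors also deposited log2 fold changes with a p-value for boron comparisons, used here only for miRNA names, and, per the file headers, a score of each hairpin prediction, which entered no result. Their tables of identified miRNAs and of predicted targets gave sequences, positions and targets.

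Where entries shared a mature sequence (73 entries, 27 sequences), the entry with the highest total was kept, because reads of a shared sequence can be counted at each locus. Counts were identical at all entries for 13 of the 27 and differed between entries for the rest. Depth per library was 282149 to 577150 counts after this step, and rare sequences carry counting error beside the spread between libraries. Counts of the 124 sequences that passed filterByExpr (count minimum 10) were tested with edgeR 4.0.16 in R 4.3.3, with trimmed-mean scaling, in 1 quasi-likelihood model of the 4 group means that used every library. miR9560 and ccl-miR171 did not pass. The contrasts were C. grandis over C. sinensis at 400 µM, the same at 10 µM, and their difference. Tests were two-sided, at a Benjamini-Hochberg adjusted p below 0.05. SEs are the absolute log2 difference over the root of the F statistic. CPM uses trimmed-mean library sizes. Counts of 0 in a group were set to 3 counts over the group, and ratios to 1 to 3 counts carry a 95% exact counting interval. limma 3.58.1, DESeq2 1.42.0 and SciPy 1.17.1 served the alternatives and exact tests.

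The members and lists were chosen with earlier results of these data known. Named were up to 12 called sequences per direction, up to 4 per list by p, the 5 most abundant per species, all miR319 and miR171 forms, the 5 smallest p of the difference between levels, and near-identical pairs of opposite sign with at least 1 call. Values of the named list members that did not pass are given singly or within the range of their list. Alternatives were other scalings, DESeq2, other filters, all or summed entries, group weights, a replicate block, only 6 libraries, a log2 bound of 1 and each library left out.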

Additional observations from a re-analysis of the deposited data

Results flagged for a closer look

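The species difference of miR3951 differed between the boron levels. The log2 difference of C. grandis over C. sinensis at 400 µM minus that at 10 µM was −4.61 (SE 0.95, edgeR adjusted p = 0.0477), and it was the 1 of 124 sequences past the threshold in this test. The 3 C. grandis libraries at 400 µM held 15, 41 and 33 counts and those at 10 µM 318, 334 and 1935 counts, while C. sinensis kept the sequence among its most abundant at both levels. Its adjusted p ran from 1.63e-05 with DESeq2 to 0.186 with a replicate block.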

How the results depend on the processing

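The number of sequences that differed at 400 µM was 28 in the reported fit and 20 to 36 in 9 of the other fits. All entries as deposited gave 49 calls, 35 higher and 14 lower in C. grandis, which held 33 distinct sequences, 26 of them among the 28; a test beyond a log2 difference of 1 gave 11. The share of calls that were higher in C. grandis was 53.6% in the reported fit, 38.1% under median-of-ratios scaling, without a filter and with a mean CPM of at least 10, 44.4% with DESeq2 (16 higher, 20 lower) and 68.8% with total counts. The median log2 difference moved by 0.157 with total counts, 0.102 with all entries and −0.106 without a filter. With 1 library left out the count was 15 to 31, lowest without C. sinensis replicate 2 (15) and replicate 1 (16). At 10 µM the count of 35 became 12 beyond a log2 difference of 1 and 18 to 35 with 1 library left out. The difference between levels had 1 call, 2 with total counts and with DESeq2, 0 with all entries, group weights or the replicate block, and 0 to 2 with 1 library left out. With all entries the 21-nt, 22-nt and 5 most abundant shares differed by −3.74, 6.05 and −1.69 percentage points. Without miR3951 and scaffold_1_3278 the 21-nt share differed by −1.61, the 24-nt share by −6.88 and the 5 most abundant by 3.27 points, and the total by 53499 counts. With 1 library left out the differences were −1.73 to 4.39 (20 nt), −10.7 to −8.45 (21 nt), 7.81 to 13.6 (22 nt), −3.49 to −1.63 (24 nt), −1.60 to 1.59 (most abundant) and −4.02 to −2.10 points (5 most abundant), and −113462 to −7672 total counts. The causes were not tested.

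Whether replicate numbers pair libraries is not stated in the labels. At 400 µM same-numbered libraries of the species had correlations of deviations of 0.007, −0.100 and 0.310. Libraries of unlike number had −0.270 to 0.259. Deviations from a mean of 3 libraries depend on each other, so these values cannot show whether libraries were paired. With a replicate block within each level 21 sequences were called at 400 µM, 9 higher and 12 lower.

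Sequences near 0 changed sign. ath-miR165a-3p (scaffold_5_27452) was at −0.036 (median-of-ratios, DESeq2), −0.061 (both filters), −0.014 (summed entries) and −0.025 (6 libraries), miR396g-5p at −0.049, −0.050, −0.063, −0.063, −0.019 and −0.023 in the same settings, and ppt-miR319a at −0.069, −0.069, −0.080, −0.079, −0.034 and −0.054. With total counts ath-miR166a-5p was at 0.080, ath-miR396a-5p (scaffold_1_132) at 0.019, csi-miR477b at 0.149, miR397-3p at 0.127 and scaffold_1_3278 at 0.029. With all entries csi-miR477b was at 0.068 and miR397-3p at 0.082, and with group weights zma-miR169m-3p was at −0.147. With 1 library left out the ranges crossed 0 for ath-miR165a-3p (scaffold_5_27452) −0.091 to 0.11, ath-miR166a-5p −0.33 to 0.23, ath-miR396a-5p (scaffold_1_132) −0.35 to 0.038, csi-miR477b −0.45 to 0.16, miR319 −0.067 to 0.46, miR3627.2 −0.13 to 0.40, miR396g-5p −0.16 to 0.067, miR397-3p −0.94 to 0.35, miR780 −0.52 to 0.019, osa-miR530-5p −0.010 to 0.44, ppt-miR319a −0.12 to 0.057, scaffold_1_3278 −0.47 to 0.10 and zma-miR169m-3p −0.59 to 0.71.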
